A study of Mus musculus with 8 samples.

Results

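The troponins, tropomyosin and myosin light chains of slow and fast muscle fibers were followed in skeletal muscle of mice that lack *Grsf1* in this tissue. The members are 10 genes, of 22911 genes that could be named on the array: 6 whose products are typical of slow fibers (*Tnnt1*, *Tnni1*, *Tnnc1*, *Tpm3*, *Myl2* and *Myl3*) and 4 typical of fast fibers (*Tnnt3*, *Tnni2*, *Tnnc2* and *Mylpf*). They were chosen by name, and every probe whose accession is a RefSeq transcript of one of them was taken, 19 of 56605 probes, 12 for the slow and 7 for the fast genes. Total RNA of 3 Grsf1cKO and 3 WT male mice, all 17 months old, was measured on 8 Agilent 1-color arrays, because WT 1 and Grsf1cKO 1 each had a repeat array. Grsf1cKO mice descend from the Grsf1tm1a allele of the European Mouse Mutant Archive, carried by a C57BL/6N-Atm1Brd strain, from which FLPo removed the LacZ and Neo cassettes, and the floxed exons IV and V were then deleted by Cre expressed from *Myf5*, a gene of the myogenic lineage. WT mice were the controls. The sample labels name the vastus intermedius and the methods name the rectus femoris, another muscle of the quadriceps.

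Troponin is the calcium switch of the thin filament. Its subunit C binds calcium, subunit I holds back the contact of actin and myosin, and subunit T ties the complex to tropomyosin, while the light chains sit on the neck of the myosin head. Slow, oxidative fibers and fast, glycolytic fibers make most of these proteins from different genes, so that their mRNAs are used as readouts of fiber type.

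Values are log2 signals after quantile normalization, given per mouse, and the signals of 2 probes are not read as a ratio of 2 mRNAs. *Grsf1* itself had 12.16, 12.03 and 12.09 in the Grsf1cKO mice 1, 2 and 3, against 14.31, 14.26 and 14.28 in WT 1, 2 and 3. All 3 Grsf1cKO mice lay below all 3 WT mice, with a log2 fold change of -2.19 (adjusted *p* = 0.00275, limma), although the position of this probe relative to exons IV and V is not given in the sources used here. With same-numbered mice as a block, 0 probes passed the study's criteria (given below) as lower, so *Grsf1* did not pass them there. The block cannot change its fold change. Of 5 skeletal muscle markers (*Ckm*, *Acta1*, *Des*, *Mb* and *Ckmt2*) all 5 were well above background in all 6 mice. Of 4 cardiac markers, *Myl7* was well above background in only 2 of 6 mice, and *Myh6*, *Nppa* and *Tnni3* were in all 6. All 19 member probes were well above background in all 6 mice and none of their spots was saturated.

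The slow troponins varied most, and 1 mouse stood apart. *Tnni1*, the slow inhibitory subunit, had 11.19, 10.62 and 14.34 in the Grsf1cKO mice 1, 2 and 3, against 10.35, 11.18 and 11.22 in WT 1, 2 and 3. Grsf1cKO 3 was 3.42 above the WT mean, while Grsf1cKO 1 (0.28) and Grsf1cKO 2 (-0.30) lay within the range of the WT mice. *Tnnt1*, the slow subunit that binds tropomyosin, had 12.70, 12.26 and 14.39 in the Grsf1cKO mice, and 11.99, 12.80 and 13.03 in the WT mice. Again only Grsf1cKO 3 was above all WT mice, and WT 1 was the lowest of the 6. *Tnnc1*, the calcium-binding subunit of slow and cardiac muscle, had 8.83, 8.55 and 10.29 in the Grsf1cKO mice, and 8.18, 8.84 and 8.90 in the WT mice. For all 3 genes the genotypes overlapped, Grsf1cKO 3 was the highest mouse and WT 1 the lowest.

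The second probe of *Tnni1* and of *Tnnt1* gave the same order at the extremes, with Grsf1cKO 3 at 3.23 and 1.90 above the WT mean. The repeat array of WT 1 differed from its first array by -0.02 for *Tnni1* and -0.01 for *Tnnt1*, and that of Grsf1cKO 1 by 0.02 and -0.07. For the second probe of *Tnni1* these differences were -0.08 and 0.21, and for *Tnnc1* 0.08 and 0.21. For each of these probes Grsf1cKO 3 lay further above the highest WT mouse than the 2 arrays of a mouse lay apart. Repeat arrays measure the noise of the array and not the spread between mice, so that this does not show an unusual mouse. Grsf1cKO 3 had no repeat array.

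The mean log2 fold change of Grsf1cKO over WT was 1.13 for *Tnni1* (95% confidence interval -1.22 to 3.48, adjusted *p* = 0.994), 0.51 for *Tnnt1* (-0.92 to 1.95, adjusted *p* = 0.994) and 0.59 for *Tnnc1* (-0.58 to 1.76, adjusted *p* = 0.994). None of these differences was larger than the spread between mice. By exact permutation of the 6 mice, 2-sided, *p* was 0.5, 0.7 and 0.6, and this test cannot go below 0.1 with 3 mice against 3. Without Grsf1cKO 3 the fold changes were -0.01 for *Tnni1*, -0.12 for *Tnnt1* and 0.06 for *Tnnc1*, so that the positive means of *Tnni1* and *Tnnt1* rest on that mouse. With the slide as a block they were 1.11, 0.50 and 0.56, and within slide 2, which holds both genotypes and was scanned apart from slide 1, they were 1.27, 0.61 and 0.67.

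**Figure D1:**
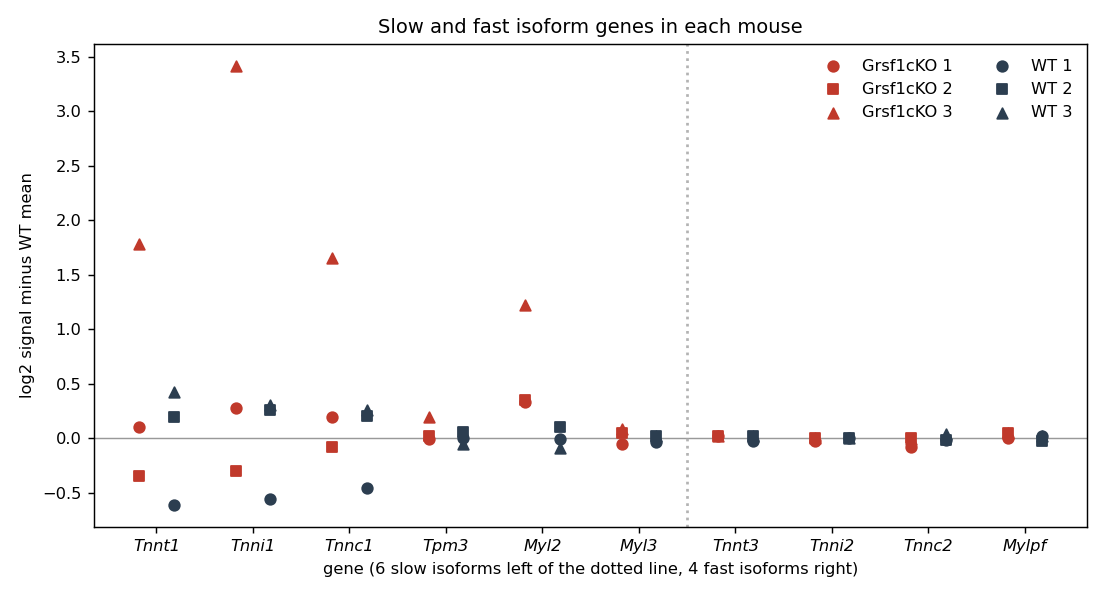
Log2 signal of the brightest probe of each gene in each mouse, minus the mean of the WT mice, with Grsf1cKO mice in red, WT mice in dark blue and a marker for each mouse number. Grsf1cKO 3 reaches 3.42 for *Tnni1*, and the 4 fast genes lie close to 0 in all mice on this scale, on which the highest ranks are fixed.

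Because the 3 slow troponins were high in the same mouse and low in the same mouse, the 250 bases before their starts are shown, from the RefSeq promoter table (GRCm38.p6), which held 8 of the 10 genes. For *Tnni1* the more upstream of its starts in the table is given. Capitals mark matches, on either strand, to the E-box CANNTG, the letters of myogenic factors of the MyoD family, to the M-CAT element CATTCC, bound by TEAD factors, or to TATAAA.
*Tnni1*, chr1:135799171-135799420, plus strand: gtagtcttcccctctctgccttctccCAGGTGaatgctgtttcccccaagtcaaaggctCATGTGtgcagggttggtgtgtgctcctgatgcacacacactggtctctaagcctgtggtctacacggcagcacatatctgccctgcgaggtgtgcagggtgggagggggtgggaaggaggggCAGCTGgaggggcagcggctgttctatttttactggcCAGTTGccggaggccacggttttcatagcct
*Tnnt1*, chr7:4515976-4516225, minus strand: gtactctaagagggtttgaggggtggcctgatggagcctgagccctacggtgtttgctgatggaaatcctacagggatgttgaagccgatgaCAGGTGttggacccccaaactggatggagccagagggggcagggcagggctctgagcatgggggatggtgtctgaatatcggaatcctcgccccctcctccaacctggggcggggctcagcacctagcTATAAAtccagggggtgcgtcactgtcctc
*Tnnc1*, chr14:31208062-31208311, plus strand: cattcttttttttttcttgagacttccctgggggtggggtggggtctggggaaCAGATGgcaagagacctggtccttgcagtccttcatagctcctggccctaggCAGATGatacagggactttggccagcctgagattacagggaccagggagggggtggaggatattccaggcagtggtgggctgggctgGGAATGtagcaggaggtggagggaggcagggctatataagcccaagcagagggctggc
The window of *Tnni1* held 4 E-boxes (2 in that of its other start), that of *Tnnt1* held 1 and that of *Tnnc1* held 2. *Tnnc1* had 1 M-CAT match, starting 58 bases before the start, and *Tnnt1* had 1 TATAAA match, 30 bases before it. Of 32851 promoter windows of this length, 66.2% held an E-box, 12.6% CATTCC and 12.4% TATAAA. The MEF2 motif, found in 2.92% of all windows, had 0 matches in the windows of the 8 genes. No motif was found in all 3 windows other than the E-box, which most promoters hold. Whether these sequences have a part in the signals of the 3 genes was not tested.

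*Tpm3*, the slow tropomyosin, did not follow the troponins closely. Its brightest probe had 13.92, 13.95 and 14.13 in the Grsf1cKO mice and 13.93, 13.99 and 13.87 in the WT mice. Grsf1cKO 3 was again the highest mouse, while the genotypes overlapped and the whole range over the mice was 0.26. Of its 5 probes, 3 had fold changes between -0.01 and 0.01, the brightest had 0.07 (0.01 without Grsf1cKO 3), and the dimmest, for another transcript, had 0.21 with genotypes that did not overlap, or 0.34 after scaling to the 75th percentile. The 2 arrays of Grsf1cKO 1 differed by 0.35 on this dim probe. The repeat array of this mouse stood apart, with 88.9% of its spots well above background, against 66.3% to 73.1% on the other arrays. It is averaged into the values of Grsf1cKO 1.

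*Myl2*, the slow regulatory light chain, was the only gene whose brightest probe separated the genotypes. It had 13.47, 13.49 and 14.36 in the Grsf1cKO mice 1, 2 and 3, against 13.13, 13.24 and 13.04 in WT 1, 2 and 3. All 3 Grsf1cKO mice lay above all 3 WT mice, and Grsf1cKO 3 lay 1.23 above the WT mean, against 0.33 and 0.35 for the other Grsf1cKO mice. The fold change was 0.63 (95% confidence interval 0.01 to 1.26, adjusted *p* = 0.994, exact permutation *p* = 0.1). With the slide as a block it was 0.61 and within slide 2 it was 0.67. Without Grsf1cKO 3 it was 0.34, and over all alternatives it lay between 0.34 and 0.79, with adjusted *p* from 0.391 (the *z*-test) to 1. *Myl3*, the slow essential light chain, had 17.67, 17.77 and 17.80 in the Grsf1cKO mice and 17.68, 17.74 and 17.74 in the WT mice, and the genotypes overlapped. Its range over the mice was 0.14, and its fold change was 0.02, or -0.06 with each array scaled to its 75th percentile.

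The fast genes lay at the top of the signal range. Before normalization, *Tnnt3*, the fast subunit T, was the brightest probe on 7 of the 8 arrays, *Tnni2*, the fast inhibitory subunit, ranked between 4 and 5, and *Mylpf*, the fast regulatory light chain, between 10 and 21. *Tnnc2*, the fast calcium-binding subunit, ranked between 38 and 61. Quantile normalization gives each rank the same value on every array, so that it fixes the values of probes at the very top, and these genes are given on both scales. After it, *Tnnt3* had 19.13 in all mice but WT 1 (19.08), and *Tnnc2* had 18.47, 18.56 and 18.54 in the Grsf1cKO mice and 18.53, 18.54 and 18.59 in the WT mice.

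Scaled to the 75th percentile, *Tnnt3* had 18.89, 19.14 and 19.26 in the Grsf1cKO mice 1, 2 and 3, against 19.08, 19.26 and 19.33 in WT 1, 2 and 3. *Tnnc2* had 18.30, 18.55 and 18.63, and 18.53, 18.67 and 18.74. On this scale Grsf1cKO 1 was the lowest mouse and WT 3 the highest for all 4 genes, and the genotypes overlapped for each. The scaling shifts all probes of an array by the same amount. Before it, *Tnnt3* had 19.12 and 19.13 on the 2 arrays of Grsf1cKO 1, against 19.02 and 19.09 on those of WT 1. For this gene the low place of Grsf1cKO 1 thus depended on the scaling. The fold changes of *Tnnt3*, *Tnni2*, *Tnnc2* and *Mylpf* were 0.02, -0.01, -0.03 and 0.03 after quantile normalization and -0.13, -0.12, -0.16 and -0.10 after scaling, with adjusted *p* of at least 0.997 on both scales. The direction of *Tnnt3* and *Mylpf* thus depended on the scaling, while no fast gene passed the test on either scale. The dim second probe of *Mylpf*, for a predicted transcript, had a fold change of 0.19, with overlapping genotypes, while the 2 arrays of Grsf1cKO 1 differed by 0.72 and those of WT 1 by 0.23 on it.

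**Figure D2:**
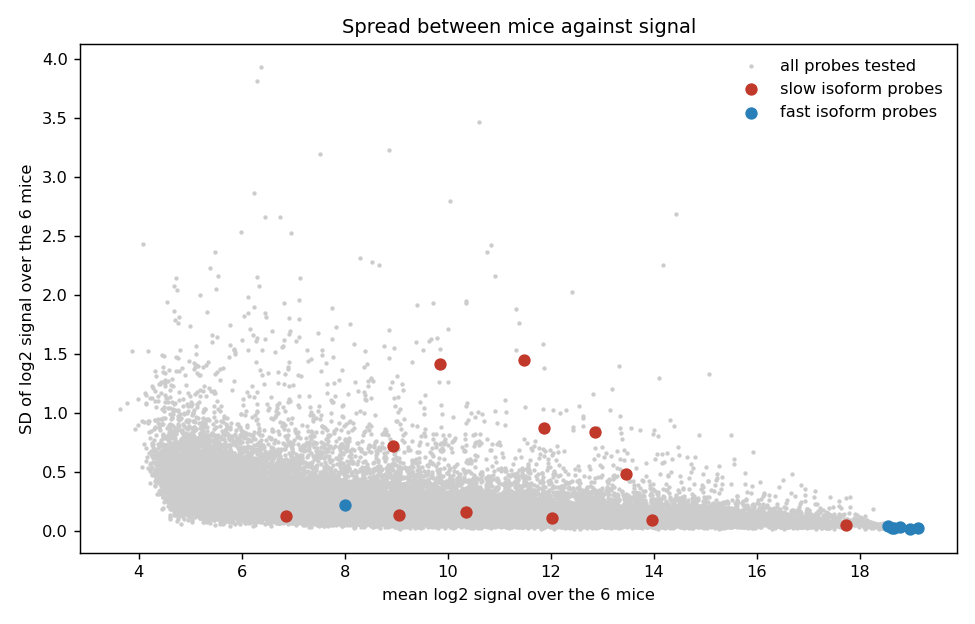
SD of the log2 signal over the 6 mice against the mean log2 signal, for all probes tested (gray), slow isoform probes (red) and fast isoform probes (blue). The 149 probes with a mean of at least 18 had a median SD of 0.0399, and all fast probes but the dim one of *Mylpf* are among them.

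Of the 19 member probes, 0 passed the criteria of the study (more than 1.5-fold, *p* below 0.01 before adjustment and a false discovery rate below 0.2) with limma, and 0 passed them with a *z*-test. The methods name a *z*-test without its formula, so that the one used here (group difference over its standard error, with a normal *p*) may differ, and the *z*-ratio, mean *z* and ANOVA filters of the methods were not applied. Of all 38888 probes tested, 3 passed with limma (0.00771%) and 320 with the *z*-test. At an unadjusted *p* under 0.05, 2 member probes were higher in Grsf1cKO and 0 lower with limma, against 1.3% higher and 2.94% lower of all probes. Genotypes did not overlap for 2 member probes, both higher in Grsf1cKO, and for 0 lower, against 3.09% and 6.27% of all probes. These 2 probes, of *Myl2* and *Tpm3*, are the same in both counts. The count of 2 at an unadjusted *p* under 0.05 depended on the fit. Of 18 alternatives that keep single probes, 2 gave 2 probes, 11 gave 1 and 5 gave 0. The 5 were those without the filter on dim probes, with the slide as a block, with the replicate block, without WT 1 and without WT 3, and leaving out any other mouse gave 1. Slide 1 holds only WT arrays. For *Myl2* the unadjusted *p* was 0.047, or 0.0604 with the slide as a block and 0.0657 with the replicate block.

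The 6 slow genes had a median log2 fold change of 0.55 and the 4 fast genes of 0.00, beside a median of -0.03 over all probes tested. The difference of 0.55 rested on Grsf1cKO 3. Averaged over the 6 slow genes, the mice lay at 0.14, -0.05 and 1.39 (Grsf1cKO 1, 2 and 3) and at -0.28, 0.14 and 0.14 (WT 1, 2 and 3) relative to the WT mean. Grsf1cKO 3 alone was outside the range of the WT mice. Without it the median of the slow genes was 0.00, and it was 0.28 without WT 1 and 0.85 without Grsf1cKO 2. Among all probes Grsf1cKO 3 was the highest mouse for 16.3%, and it was the highest, ties included, for 10 of the 12 slow and 4 of the 7 fast probes. For *Tnnt3*, *Tnni2* and *Mylpf* the brightest probe was equal, to 2 decimals, in Grsf1cKO 3 and at least one other mouse, at ranks that the normalization fixes.

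**Figure D3:**
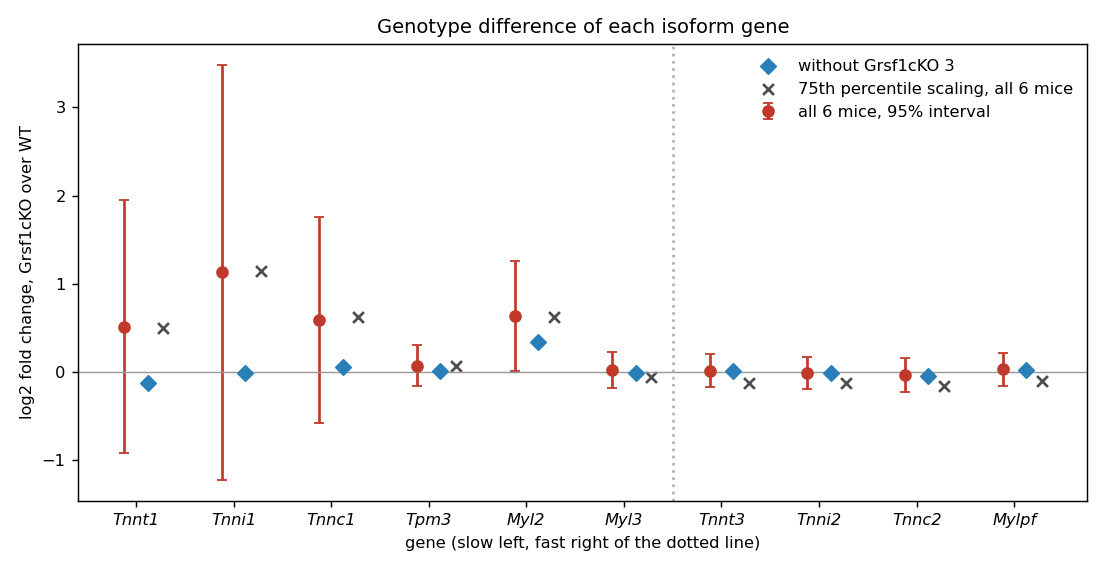
Log2 fold change of Grsf1cKO over WT for the brightest probe of each gene with all 6 mice (red, bars are 95% confidence intervals), without Grsf1cKO 3 (blue diamonds) and after scaling to the 75th percentile (crosses). Without Grsf1cKO 3, *Tnni1* falls from 1.13 to -0.01 and *Myl2* from 0.63 to 0.34.

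Most other genes of slow fibers were also highest in Grsf1cKO 3. It was the highest mouse for 9 of 11, and the median of the 11 in it was 0.95 above the WT mean. The fold change was positive for 9 genes and negative for 2, *Myh7* and *Myh7b*. Of the 11, 0 passed the criteria with limma and 0 with the *z*-test, 2 were higher at an unadjusted *p* under 0.05 and 0 lower, and the median fold change was 0.32. *Csrp3*, a Z-disc protein, had 13.85, 13.73 and 14.31 in the Grsf1cKO mice and 12.02, 13.61 and 12.55 in the WT mice, a fold change of 1.24 (adjusted *p* = 0.994). *Myom3*, an M-band protein, had a fold change of 0.61 (adjusted *p* = 0.994), also without overlap, and *Ankrd2*, a stretch-responsive protein, 0.72 with overlap. The share of all probes that were higher without overlap was 3.09%, and 6.27% were lower. *Myh7*, the slow myosin heavy chain, was singled out after its values were seen. Its values were 11.36, 9.47 and 9.40 for the Grsf1cKO mice, numbered 1 to 3, beside 9.28, 11.39 and 11.33 for the WT mice. The mice thus fell into a high and a low set that both hold mice of each genotype, and Grsf1cKO 3, the highest mouse for the slow troponins, was among the low ones. *Myh7b*, also looked at after its values were seen, split the mice the same way with smaller differences. It had 9.56, 9.20 and 9.07 in the Grsf1cKO mice and 9.16, 9.58 and 9.66 in the WT mice.

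Of 12 other fast fiber genes, 0 passed the criteria with limma, 0 with the *z*-test, and 0 had an unadjusted *p* under 0.05 with limma, and the median fold change was 0.01. Genotypes did not overlap for *Myh2*, the heavy chain of type IIA fibers (0.19), and *Myh4*, that of type IIB fibers (-0.05), while *Mylk2*, the kinase of the fast regulatory light chain, had 0.09. Among all probes 3.09% were higher and 6.27% lower without overlap. By mean signal *Myh4* ranked 45, near the ranks whose values the normalization fixes. Of 12 sarcomere genes shared by all fibers 0 passed with either test and 0 had an unadjusted *p* under 0.05, with the largest changes for *Myom2* (-0.12) and *Actn2* (0.11). Of 14 fiber type regulators 0 passed with either test, while 0 were higher and 1 lower at an unadjusted *p* under 0.05 with limma. Their fold change was positive for 2 and negative for 12, with a median of -0.113. The coactivator *Ppargc1a* was lower without overlap (-0.26, adjusted *p* = 0.994), and the largest changes were those of *Myog* (0.71), a myogenic factor, and *Tead1* (-0.28).

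Some cardiac and developmental isoforms were also high in Grsf1cKO 3. Of 7 tested, 0 passed the criteria with limma and 0 with the *z*-test, 1 was higher at an unadjusted *p* under 0.05 and 0 lower, and Grsf1cKO 3 was the highest mouse for 6, although *Myh8*, of perinatal muscle, was level in it and WT 3 (18.80 in both). *Myh3*, the embryonic myosin heavy chain, had 9.86, 10.07 and 15.31 in the Grsf1cKO mice and 10.01, 9.98 and 10.28 in the WT mice. *Actc1*, cardiac actin, had 14.04, 14.31 and 15.46, and 13.50, 14.08 and 13.12. *Myl4*, the embryonic and atrial light chain, and *Tnnt2*, the cardiac subunit T, were chosen after their values were seen, with 16.07 and 13.34 in Grsf1cKO 3 against 13.48 and 10.99 in the highest WT mouse. *Myog* had 11.32 in Grsf1cKO 3 and between 9.14 and 9.34 in the other 5 mice.

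Macrophage markers were high in the same mouse. All 3 of 3 (*Adgre1*, *Cd68* and *Lyz2*) were highest in Grsf1cKO 3, and their summed normalized signal reached 15900 in Grsf1cKO 3, against 5850 and 6280 in Grsf1cKO 1 and 2, and 5690, 6630 and 5390 among the WT mice, with *Cd68* as the brightest gene. None was below background in any mouse. The part of these cells in the values of the slow troponins was not tested, and in bulk RNA more cells of a type and more RNA per cell cannot be told apart. Of the 4 cardiac markers, *Tnni3* was highest in Grsf1cKO 3 (7.55, against 7.29 in the highest WT mouse), *Myh6* was lowest there (10.53), and *Nppa* (7.43) and *Myl7* (4.73) lay within the range of the other mice. Of 4 tendon and fibroblast markers 2 were highest in Grsf1cKO 3, *Col1a1* with 14.96, against 14.41 in the highest WT mouse, and *Tnmd* with 11.29, against 10.98.

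**Figure D4:**
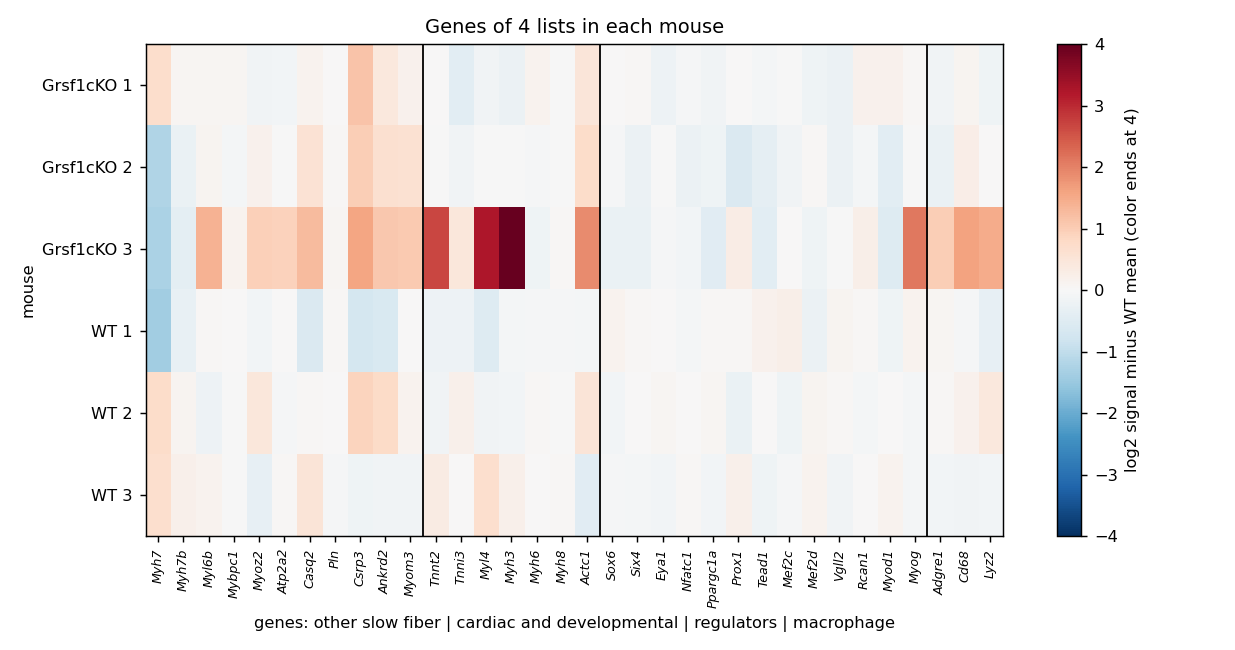
Log2 signal minus the mean of the WT mice for genes tested in 4 lists, with genes in columns and mice in rows, red for higher and blue for lower values. *Myh3*, *Myl4*, *Tnnt2*, *Myog* and the macrophage markers are high in Grsf1cKO 3, and *Myh7* is low in Grsf1cKO 2, Grsf1cKO 3 and WT 1.

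Among 5060 named genes that varied between mice, the 5 most like the mean of the slow genes over the 6 mice were *Shc3* (Pearson r = 0.995), *Pgm5* (0.992), *Tcirg1* (0.985), *E2f8* (0.985) and *Tlr1* (0.984). Each was highest in Grsf1cKO 3, which sets these values apart from the rest, and without that mouse r was 0.943, 0.920, 0.823, 0.814 and 0.807. *Pgm5*, a protein of cell adhesions in muscle, had 12.62, 12.55 and 13.11 in the Grsf1cKO mice and 12.48, 12.57 and 12.58 in the WT mice. The 5 most like the fast genes were *Fam135b* (r = 0.988), *B3gnt8* (0.984), *Tceanc2* (0.982), *Gm13272* (0.980) and *Hdac1* (0.969). The fast genes themselves differed between mice by at most 0.12 on this scale, so that this likeness follows very small differences.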

How the data were processed

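Labeled RNA of 6 mice was measured on 8 Agilent arrays. The authors deposited, for each array, the intensity of each spot on a linear scale as Feature Extraction 12.0.3.1 gives it, background-subtracted and not normalized between arrays, and a table whose score is the *z*-score of each spot. Scores computed from the log2 processed signal of all spots of an array equaled the deposited ones within 0.005. The medians of the deposited columns lay between -0.24 and -0.16.

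Control spots were left out, outlier spots set to missing, the arrays quantile normalized as the methods state, and log2 signals averaged per probe, then per mouse. The linear model of limma (3.58.1, R 4.3.3) held genotype alone and was fitted to 38888 probes that at least 3 mice had well above background and that had values in no fewer than 2 mice per genotype, with Benjamini-Hochberg adjustment over all of them. The brightest probe stands for a gene. Through RefSeq accessions 32994 of 56605 probes were named. The members and gene lists were chosen with earlier results of these data known. Genes named from a list are those with an unadjusted *p* under 0.05 or without overlap and those with the 2 largest changes. One listed gene is not reported here, in text or figure. The fits were tested on simulated data. Alternatives covered normalization, background, the deposited scores, filter, repeat arrays, slide, replicate block, intensity trend, *z*-test, other probes and each mouse left out. Precision is limited by the number of mice, 3 per genotype, since repeat arrays were averaged per mouse. Of the other marker lists (smooth muscle, adipocyte, endothelial, Schwann cell, erythroid, tendon and fibroblast), 0 genes passed the criteria with limma, 0 with the *z*-test, and 0 had an unadjusted *p* under 0.05 with limma.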

Additional observations from a re-analysis of the deposited data

How the results depend on the processing

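No member probe passed the criteria in any of the 19 alternatives run. The count of all probes past them was 3, and it was 1 with the replicate block and 320 with the *z*-test. The 1 probe with the replicate block was higher in Grsf1cKO and 0 were lower, so that *Grsf1* did not pass there. The count was 2 within slide 2, and 4 after normexp, with the intensity trend and without WT 2. Every other alternative gave 3. Same-numbered mice deviated together with correlations of 0.226, 0.1 and 0.0942, and each mouse deviated most like its own number, a hint from the data and not from the design. For mice 2 and 3 the margin was small, since Grsf1cKO 2 and WT 3 had 0.0936. The mice were taken to share only a number. In a balanced design the replicate block cannot change a fold change, and with it 0 member probes instead of 2 had an unadjusted *p* under 0.05. The median of the fast genes (0.00) was -0.12 after scaling to the 75th percentile, -0.020 after normexp and 0.082 with the deposited *z*-scores. Scaling to the 75th percentile turned *Myl3* (-0.056), *Tnnt3* (-0.13) and *Mylpf* (-0.10), normexp turned *Tnnt3* (-0.024), and the deposited scores turned *Tnni2* (0.086) and *Tnnc2* (0.029). Values from the deposited scores were put on the log2 scale at 4.287 log2 units per *z*-score. Those scores equaled the computed ones only within 0.005 of a *z*-score, so that turns this small are not resolved well by them. With the slide as a block *Tnnt3* was -0.014 and *Mylpf* -0.0022, with repeat arrays replacing first arrays *Tnni2* was 2.1e-05, and with the mean of its probes *Tnnt3* was -0.0078. These fast values are near 0, and the cause of the turns was not tested. With each mouse left out, *Tnnt1* lay between -0.12 and 0.94, *Tnni1* between -0.014 and 1.85, *Myl3* between -0.0051 and 0.063 and *Tnni2* between -0.015 and 3.1e-05, and the median of the slow genes between 0.00 and 0.85, with each lowest value of *Tnnt1*, *Tnni1* and that median without Grsf1cKO 3. *Tnnc1*, *Tpm3* and *Myl2* kept a positive sign in all 19, although *Tpm3* was near 0 (0.0069) and *Tnnc1* 0.055 without Grsf1cKO 3.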
